A study of Mus musculus with 10 samples.

Results

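The genes described here are 127 of the 43432 mouse genes counted by RNA sequencing in RAW264.7 cells, a mouse macrophage line. They were lower with LPS than without it, and stood higher again when the fatty acid **1**, an unsaturated keto acid from a marine cyanobacterial mat, was added at 32 µM. They were chosen from the values themselves. Counts were scaled to the library total (CPM), and L denotes log2(mean CPM + 1) over the libraries of a condition. A gene was kept when L in DMSO + LPS lay below L in DMSO by at least the log2 of 1.5, when L at 32 µM lay at least 0.4 above L in DMSO + LPS, and when both 32 µM libraries exceeded both DMSO + LPS libraries. The LPS condition was met by 2522 genes, the gain at 32 µM by 141 of those and the separation of the libraries by 137. Left out by name were 4 predicted genes with Gm symbols, 3 Slc transporters, 1 Gst gene and Ptgs1, and 1 identifier had no symbol.

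The cells received **1** at 32, 10 or 3.2 µM, or the solvent DMSO at 0.5%, for 1 h before LPS was added at 1 µg/mL, and RNA was taken after 12 h. The DMSO control received no LPS. Each of the 5 conditions had 2 libraries, whose labels number them as biological replicates, although nothing in the sources says that they came from separate cultures. The p-values therefore measure the spread between these samples, which may be partly technical.

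LPS, a component of the outer membrane of Gram-negative bacteria, is sensed by TLR4. Besides inducing cytokine and interferon-stimulated genes, LPS is known to withdraw macrophages from the cell cycle and to lower receptors of the resting state, among them the receptor for the growth factor CSF-1. The question addressed here is which genes lowered by LPS stood higher with **1**, and at which dose.

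Since the LPS fall and the gain at 32 µM chose the genes, both are given as a description, with no test. Both comparisons also share the DMSO + LPS libraries, which favors opposite signs. The 10 and 3.2 µM libraries had no part in the choice, and 10 µM against 3.2 µM shares no library with it. That comparison is the independent one below, in its fold changes and in the order of its libraries. Its p-values use a spread estimated over all 10 libraries, those of the rule included. They are therefore not fully independent of the choice.

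Library totals lay between 45966803 and 58976377 counts, at which a gene at 5 CPM carries a counting error of 6.6% in the smallest library. Replicate 2 at 32 µM had 2.83% of its counts on ribosomal RNA genes, where the other libraries had 0.153% to 0.333%. The 10 macrophage markers listed, Csf1r among them, summed to 12800 to 13900 CPM in DMSO, 11100 to 11200 in DMSO + LPS, 10300 to 10500 at 3.2 µM, 9200 to 9900 at 10 µM and 8300 to 9080 at 32 µM. Their sum was thus lower at each higher dose, opposite to the genes described here, with no overlap between conditions, and its part in the results was not tested. The 7 B cell markers summed to at most 0.509 CPM, and the 8 T cell markers to 5.21 to 5.83 CPM in DMSO and 7.65 to 11.4 CPM in the libraries with LPS, Cd3e and Cd8a having 0 counts in all 10 libraries. Of these 8, 2 passed the filter for testing and both were called higher with LPS. The 6 epithelial markers listed summed to 53.7 CPM in replicate 1 at 10 µM and to 7.34 CPM in replicate 1 at 3.2 µM, against at most 0.152 CPM in the other 8 libraries. The most abundant of them, Krt8, a keratin of simple epithelia, had 1039 counts in the first and 153 in the second. The 8 fibroblast markers moved with them, up to 8.91 CPM. Across the 127 genes the ratio of replicate 1 to replicate 2 at 10 µM had a median of 0.978 and a range from 0.685 to 1.41, so that 0 of them differed 1.5-fold between these libraries.

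All 127 genes passed the filter for testing (14172 genes passed in all), and 110 had a mean of at least 5 CPM. By annotation 124 were protein-coding. One of the others, H3f3a-ps1, is a processed pseudogene whose reads may belong to its parent gene. They lay on 20 chromosomes, with 13 of them on chromosome 11. Their median level, 19.95 CPM, was close to the 20.25 CPM of all genes tested, and the longest annotated transcript had a median of 3750 nt against 3034 nt.

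**Figure D1:**
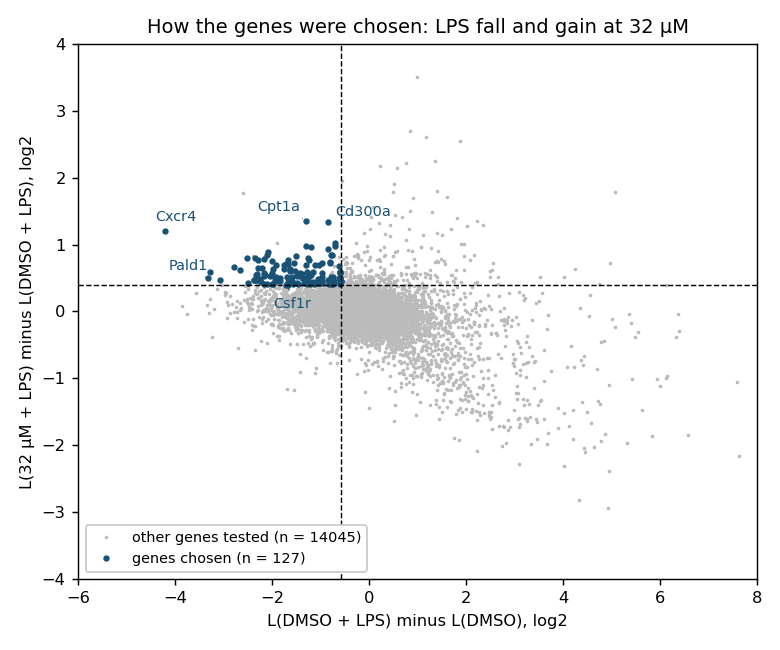
Change in L from DMSO to DMSO + LPS (horizontal, log2) against the change from DMSO + LPS to 32 µM with LPS (vertical, log2) for the genes tested. Dashed lines mark the thresholds of the rule, blue points are the 127 genes and gray points the rest, including genes left out by name. Another 6 genes lie outside the axes.

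Among these genes LPS left a median of 32.44% of the DMSO level, and at 32 µM the median was 53.22%. On the TMM-scaled fit the median log2 fold change from DMSO was -1.42 with LPS alone and -0.71 with LPS and 32 µM. Measured in L, the share of the fall regained at 32 µM ranged from 14.78% for Pald1, a paladin phosphatase-domain protein, to 155.5% for Cd300a, with a median of 39.32%. At least 50% of the fall was regained by 43 genes and less than 25% by 24. Both DMSO libraries stayed above both 32 µM libraries for 110 of the 127 genes, and such an order was found in 49.3% of all genes tested. The reverse order, with both 32 µM libraries above both DMSO libraries, was found for 4 genes, which were Cd300a, Creg1, Gclc and Pdgfa, and in 24.2% of all genes. These figures depend on the scaling between DMSO and the LPS-treated libraries. The TMM factors used for the tests raise LPS over DMSO by 0.207 on the log2 scale relative to library totals, and 19 genes then had a fitted level at 32 µM above DMSO, against 8 by library totals. With TMM scaling 104 genes met the rule, 103 of them among the 127.

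For 97 genes the mean CPM followed the order DMSO + LPS, 3.2, 10 and 32 µM, from lowest to highest, an order found in 11.5% of all genes tested. The rule fixed both ends of this order, with 32 µM above DMSO + LPS, so nothing is read from that count. At 10 µM the genes had reached a median of 55.78% of their gain at 32 µM, a share that rests on the same selected ends. The exceptions to the order included 6 genes whose level at 10 µM matched or exceeded that at 32 µM, namely Pmepa1, Angptl2, Fblim1, Hal, Serf2 and H3f3a-ps1. In total the 127 genes took 1.33% of the counts in each DMSO library and at most 0.517% in the DMSO + LPS libraries. Their share was at most 0.562% with 3.2 µM, from 0.672% to 0.688% with 10 µM, and from 0.783% to 0.816% with 32 µM.

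**Figure D2:**
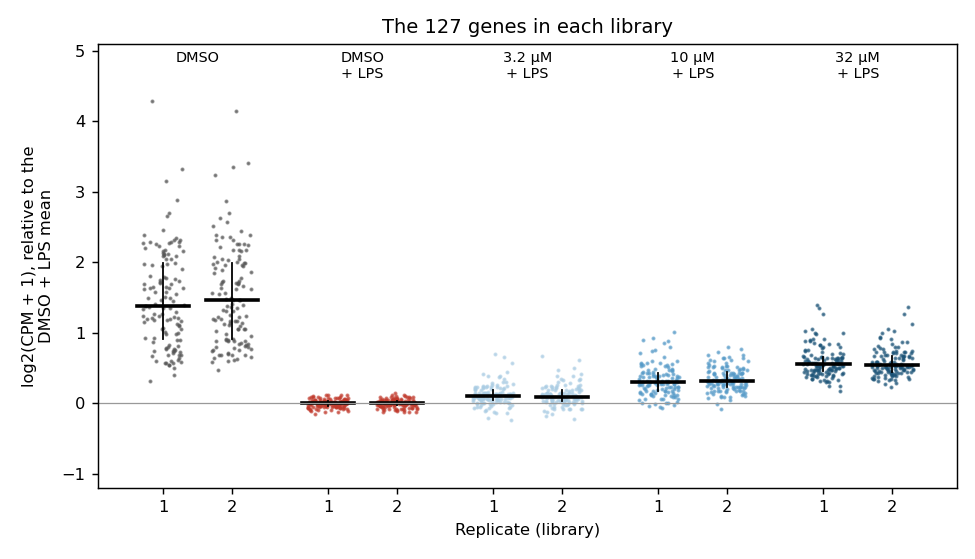
Level of each of the 127 genes (points) in each of the 10 libraries, as log2(CPM + 1) relative to the DMSO + LPS mean. Horizontal bars are medians and vertical bars span the middle 50% of genes. The DMSO and 32 µM values stand away from 0 by the way the genes were chosen, whereas the 3.2 and 10 µM libraries were not used in the choice.

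In the independent comparison the genes stood higher at 10 µM than at 3.2 µM as a group, by small amounts. The fitted log2 fold change had a median of 0.21, against 0.007 for all genes tested, and was above 0 for 120 of the 127 genes, where 52.5% of all genes were above 0. Both 10 µM libraries exceeded both 3.2 µM libraries for 96 genes, or 75.6%, against 21.2% of all genes tested. A gene is termed called when edgeR's quasi-likelihood test gave a Benjamini-Hochberg adjusted p under 0.05 and the fitted change reached 1.5-fold. By this criterion 0 of the genes were called, where 0.0706% of all genes were called higher and 0.183% lower. DESeq2 called 1 of them higher (0.116% of all genes with an adjusted p). At an unadjusted p below 0.05, edgeR gave 62 genes higher (3.97% of all genes) and 0 lower (4.4% of all genes).

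Without the minimum fold, a criterion added after the data were seen, 9 genes had an adjusted p below 0.05 and all were higher at 10 µM, while 0.254% of all genes met that criterion. They were Cpt1a, Cd300a, Ank, Creg1, Ndrg2, Pdgfa, Kif18b, Cdc20 and Bmf. With DESeq2 the count was 22, against 0.798% of all genes. The edgeR count of 9 was lower when any library was left out, also one outside this comparison, and was lowest without either 3.2 µM library. The median stayed between 0.1983 and 0.2158 when any of the 4 libraries at 3.2 and 10 µM was left out. Without both of the libraries that held epithelial markers, 117 genes were above 0 with a median of 0.22, and the count at an adjusted p below 0.05 was 0. Whether the epithelial RNA had a part in single values was not tested.

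**Figure D3:**
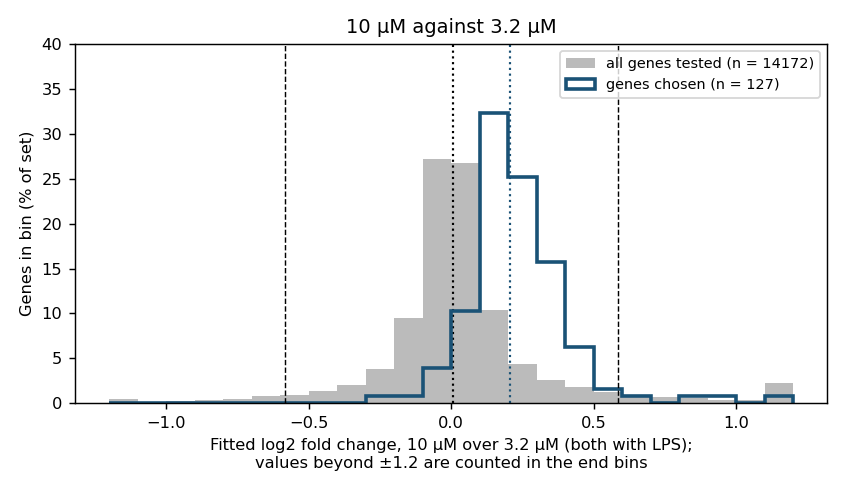
Fitted log2 fold change at 10 µM over 3.2 µM for the 127 genes (blue outline) and for all 14172 genes tested (gray), as a percentage of each set per bin of 0.1. Dotted lines are the medians, 0.21 and 0.007, dashed lines mark 1.5-fold in either direction, and values beyond the axis are counted in the end bins.

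Compared with DMSO + LPS, whose libraries also took part in the choice, 12 of the 127 genes were called higher at 10 µM (0.282% of all genes tested were called). They were Cd300a, Cpt1a, Ank, Pdgfa, Fblim1, Cxcr4, Pmepa1, Angptl2, Mgst2, Zfyve28, Rin1 and AI661453. Cd300a and Cpt1a kept the call in all alternatives. AI661453 lost it in 6 of 9, Ank and Rin1 in 4 of 10 each, Angptl2 in 3 of 9, Mgst2 in 3 of 10 and Zfyve28 in 2 of 9. Fblim1 and Pdgfa lost it without replicate 2 at 10 µM, and Pmepa1 and Cxcr4 without replicate 1 of DMSO + LPS. Ank, Fblim1 and Pdgfa lost it by the fold alone, with log2 fold changes from 0.5685 to 0.5837 there, just under the 1.5-fold limit. The fitted difference was above 0 for 126 genes (54.8% of all genes), Kif14 being the exception, with a median log2 fold change of 0.32. At 3.2 µM, 0 genes were called by edgeR, as were 0.0% of all genes, and 1 was called higher by DESeq2 (0.034% of all genes). At an unadjusted p below 0.05, 34 genes were higher at 3.2 µM (1.77% of all genes) and 0 lower (2.46% of all genes), and the median log2 fold change was 0.11. These comparisons share the DMSO + LPS libraries with each other and with the rule, and are therefore not independent of the choice. Without either DMSO + LPS library the count at 10 µM was 7 and without either 10 µM library it was 8.

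The 13 immune receptors and lectins among the genes held the gene with the largest share regained. Cd300a, an inhibitory receptor that binds phosphatidylserine (ENSMUSG00000034652, chromosome 11, 114890041 to 114904654 in GRCm38, plus strand), had 191.7 and 181.2 CPM in DMSO and 102.4 and 102.6 CPM in DMSO + LPS. It had 119.9 and 122.5 CPM at 3.2 µM, 178.9 and 175.2 CPM at 10 µM, and 270.6 and 248.6 CPM at 32 µM. The 5 conditions thus overlapped nowhere, and 32 µM was the highest of them. The log2 fold change at 10 µM over 3.2 µM was 0.53 ± 0.05 (SE, n = 2 libraries each), with an adjusted p of 0.00445 from edgeR's quasi-likelihood test. Over DMSO + LPS it was 0.78 ± 0.05 at 10 µM (adjusted p = 0.000348), and that call held in all 10 alternatives. At 10 µM over 3.2 µM the adjusted p of Cd300a was 0.117 without replicate 1 at 3.2 µM, 0.0889 without replicate 2, and 0.347 without both libraries that held epithelial markers, while the log2 fold change stayed between 0.49 and 0.54.

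Cd300lb and Cd300c2, which lie within 100 kb of one another and of Cd300a in a run of genes for myeloid receptors, were also in the set. Cd300lb, an activating member, had 170.3 and 163.3 CPM in DMSO, 109.0 and 109.1 CPM in DMSO + LPS and 115.9 and 117.4 CPM at 3.2 µM. It had 146.6 and 136.3 CPM at 10 µM and 172.7 and 153.1 CPM at 32 µM. Cd300lb did not pass at 10 µM over 3.2 µM (log2 fold change 0.26 ± 0.06, adjusted p = 0.136). Cd300c2 had 38 and 32.73 CPM in DMSO, 11.16 and 10.93 CPM in DMSO + LPS, 12.79 and 13.04 CPM at 3.2 µM, 16.25 and 12.6 CPM at 10 µM, and 16.86 and 14.16 CPM at 32 µM. Its 10 and 3.2 µM libraries overlapped, and the log2 fold change between those doses was 0.14 ± 0.13. Their neighbors did not all move this way. Cd300ld had 156.4 and 164.4 CPM in DMSO, 142.6 and 134.6 CPM in DMSO + LPS, and 160.8 and 155.6 CPM at 32 µM. On the TMM-scaled fit its log2 fold change with LPS was -0.0034. At 32 µM over DMSO + LPS it was 0.19 (adjusted p = 0.0409, edgeR's quasi-likelihood test), the direction of the members. Cd300lf was lower with LPS and lower still at 32 µM, with a log2 fold change of -0.56 there (adjusted p = 0.0235). Cd300e was higher with LPS and fell by 1.14 on the log2 scale at 32 µM (adjusted p = 0.000614). Reads of these related genes may be shared between them in counting.

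Trem2, a lipid-sensing receptor of macrophages and microglia (ENSMUSG00000023992, chromosome 17, 48346401 to 48354147 in GRCm38, plus strand), had 343.8 and 324 CPM in DMSO and 75.81 and 79.17 CPM in DMSO + LPS. Its values were 90.56 and 89.82 CPM at 3.2 µM, 117.4 and 108.9 CPM at 10 µM, and 153.4 and 134.4 CPM at 32 µM. The doses did not overlap, and 43.1% of the DMSO level was present at 32 µM. At 10 µM over 3.2 µM the log2 fold change was 0.31 ± 0.07, which did not pass (adjusted p = 0.112). Over DMSO + LPS the 10 µM value was 0.54 ± 0.07 with an adjusted p of 0.00669, below 1.5-fold. Its neighbor Treml1, which starts 5769 bases beyond the end of Trem2, stayed below 2 CPM in all libraries.

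The proximal promoters of Trem2 and of the 3 CD300 genes in the set are shown because these receptors were chosen by the same rule and 3 of them are neighbors. Each run holds the 250 bases before the RefSeq start site in GRCm38.p6, written 5′ to 3′ on the strand of the gene, which is plus for Cd300a and Trem2 and minus for Cd300lb and Cd300c2. Capitals mark the core of the PU.1 motif (GAGGAA, or TTCCTC on the other strand), bound by the macrophage factor PU.1, or the core of the antioxidant response element (TGACNNNGC on either strand), bound by Nrf2.

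Cd300a (chr11:114889791-114890040): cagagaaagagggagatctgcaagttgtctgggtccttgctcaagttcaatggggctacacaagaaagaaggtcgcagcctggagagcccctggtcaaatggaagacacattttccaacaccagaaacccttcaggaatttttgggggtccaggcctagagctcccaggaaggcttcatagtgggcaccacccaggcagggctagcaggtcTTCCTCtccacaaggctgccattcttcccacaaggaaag
Cd300lb (chr11:114934372-114934621): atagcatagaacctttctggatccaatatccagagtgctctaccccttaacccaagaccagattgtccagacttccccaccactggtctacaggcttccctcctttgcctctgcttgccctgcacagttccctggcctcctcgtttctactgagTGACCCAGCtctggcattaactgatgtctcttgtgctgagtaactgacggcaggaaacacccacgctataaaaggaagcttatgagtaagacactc
Cd300c2 (chr11:115001881-115002130): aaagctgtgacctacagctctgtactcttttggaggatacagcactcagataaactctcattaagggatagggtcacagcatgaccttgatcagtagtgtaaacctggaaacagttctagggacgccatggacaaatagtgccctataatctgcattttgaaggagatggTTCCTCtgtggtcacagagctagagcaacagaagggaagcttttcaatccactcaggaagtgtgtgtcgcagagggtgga
Trem2 (chr17:48346151-48346400): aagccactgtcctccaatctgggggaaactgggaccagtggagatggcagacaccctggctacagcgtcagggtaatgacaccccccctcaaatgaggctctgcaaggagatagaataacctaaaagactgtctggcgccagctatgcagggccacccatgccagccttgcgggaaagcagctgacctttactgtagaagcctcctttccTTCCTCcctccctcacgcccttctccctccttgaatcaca

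Matches to the PU.1 core began 39 bases before the start in Cd300a, 80 bases before it in Cd300c2 and 40 bases before it in Trem2, and a match to the antioxidant response element core began 96 bases before the start of Cd300lb. Promoter entries of 300 bases were found for 101 of the 127 genes, with 131 start sites. The PU.1 core was present in 28.2% of these and in 28.3% of all 32851 promoters in the table. The antioxidant response element core was present in 16.8% against 12.4%, the interferon-stimulated response element in 3.05% against 3.44%, and the E-box CACGTG in 8.4% against 7.15%, both strands searched. These matches describe letters in the window and do not show binding.

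Csf1r, the receptor for CSF-1 (ENSMUSG00000024621, chromosome 18, 61100598 to 61132149 in GRCm38, plus strand), had 2586 and 2494 CPM in DMSO and 798.6 and 781.1 CPM in DMSO + LPS. The libraries held 808.6 and 814 CPM at 3.2 µM, 974.9 and 922.6 CPM at 10 µM, and 1082 and 1003 CPM at 32 µM. No doses overlapped, and Csf1r lay just inside the threshold for the gain at 32 µM, at 0.4001. Its log2 fold change at 10 µM over 3.2 µM was 0.21 ± 0.05 (adjusted p = 0.124). The macrophage identity and growth factor receptor list as a whole did not follow it. Of its 33 other genes tested, 6 had a log2 fold change above 0 at 10 µM over 3.2 µM, with a median of -0.12 and 1 called lower.

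Cxcr4, the receptor for the chemokine CXCL12, showed the deepest fall. It had 52.71 and 47.72 CPM in DMSO and 1.713 and 1.797 CPM in DMSO + LPS, or 3.494% of the DMSO level. The libraries held 2.246 and 2.508 CPM at 3.2 µM, 3.325 and 3.437 CPM at 10 µM, and 5.633 and 5.025 CPM at 32 µM. The order by dose was complete, yet 32 µM brought Cxcr4 to 10.61% of the DMSO level. The log2 fold change of 0.49 ± 0.10 at 10 µM over 3.2 µM did not pass (adjusted p = 0.0804), whereas 0.94 ± 0.10 over DMSO + LPS was called (adjusted p = 0.0034), a call lost without replicate 1 of DMSO + LPS. Tlr13, an endosomal sensor of bacterial ribosomal RNA, regained 107.3% of its fall in L. The lectins Lgals3 and Clec10a and the scavenger receptor Stab1 regained between 41.56% and 52.22%. Lgals3, which encodes galectin-3, had 692.4 and 669.8 CPM at 3.2 µM and 880.4 and 708.6 CPM at 10 µM, which did not overlap although the 10 µM replicates differed widely.

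**Figure D4:**
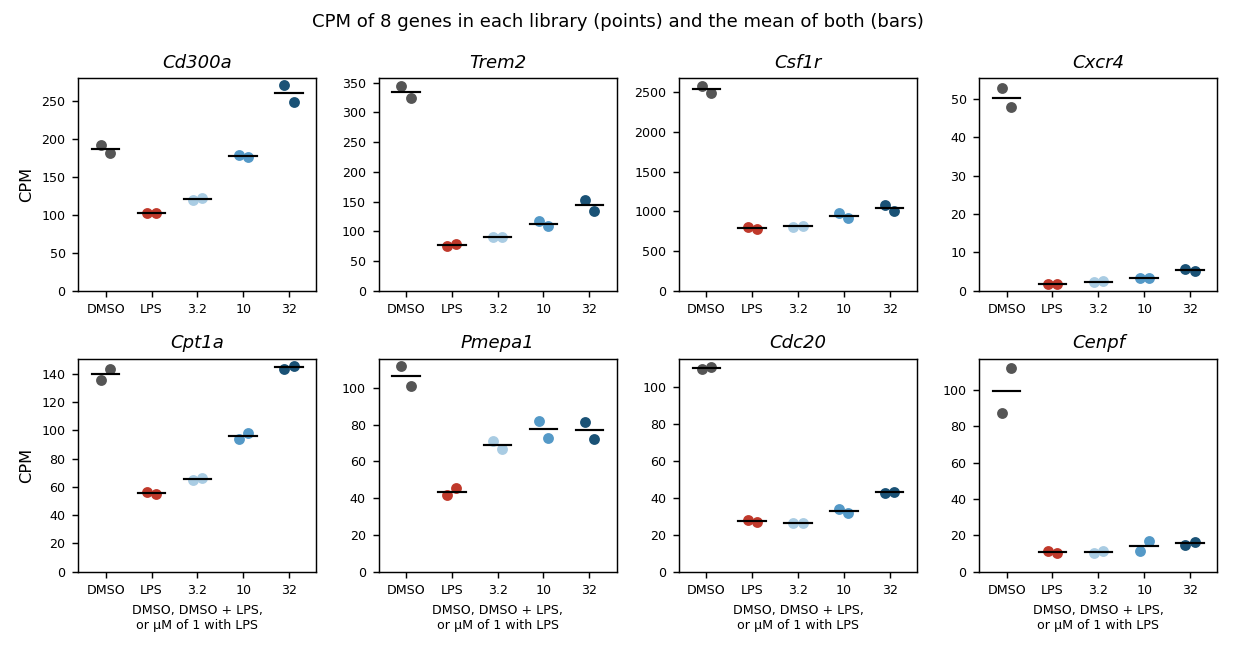
CPM of 8 genes in each library, with points for replicates 1 and 2 (left and right) and bars for their mean, in DMSO, DMSO + LPS and with LPS and 3.2, 10 or 32 µM of **1**. Cd300a and Cpt1a reached or passed their DMSO level at 32 µM, and Pmepa1 changed most below 10 µM. Trem2, Csf1r, Cxcr4, Cdc20 and Cenpf stayed far below DMSO.

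Genes of lipid, redox and small-molecule metabolism made up 16 of the 127, and 15 of them had a log2 fold change above 0 at 10 µM over 3.2 µM. Cpt1a, which brings long-chain fatty acids into mitochondria for oxidation (ENSMUSG00000024900, chromosome 19, 3322334 to 3385733 in GRCm38, plus strand), had 136 and 143.4 CPM in DMSO and 56.4 and 55.21 CPM in DMSO + LPS. The values were 65 and 65.94 CPM at 3.2 µM, 94.1 and 98.07 CPM at 10 µM, and 143.4 and 146 CPM at 32 µM. The 3 doses were fully separated, and the 32 µM libraries reached the range of the DMSO libraries. The log2 fold change of 0.53 ± 0.05 at 10 µM over 3.2 µM had the smallest adjusted p of the 127 genes, 0.00337. For Cpt1a it was 0.113 without replicate 1 at 3.2 µM, 0.0889 without replicate 2, and 0.232 without both libraries that held epithelial markers, while the log2 fold change stayed between 0.52 and 0.55. Over DMSO + LPS, Cpt1a was called at 10 µM in the main test and in all 10 alternatives.

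The list of PPAR targets, lipid droplet and fatty acid oxidation genes held no other member of the set. Its 35 other genes tested had a median log2 fold change of 0.02 at 10 µM over 3.2 µM, with 21 above 0 and 1 called higher. Plin2, which coats lipid droplets, missed the set narrowly, with an LPS change of -0.57 and a gain of 1.95 at 32 µM.

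Gclc, the catalytic subunit of the enzyme that limits glutathione synthesis, had 174.7 and 199.3 CPM in DMSO and 117.6 and 111.2 CPM in DMSO + LPS. It had 115.7 and 119.3 CPM at 3.2 µM, 141.4 and 176.3 CPM at 10 µM, and 214 and 238.3 CPM at 32 µM. Its 3.2 µM libraries overlapped those of DMSO + LPS, and the 32 µM libraries exceeded DMSO. The step from 3.2 to 10 µM, 0.42 ± 0.11 on the log2 scale, did not pass (adjusted p = 0.23). Mgst2, a microsomal glutathione transferase, had 12.67 and 14.83 CPM in DMSO + LPS, 15.28 and 14.99 CPM at 3.2 µM, 25.61 and 20.86 CPM at 10 µM, and 28.47 and 25.97 CPM at 32 µM. Its log2 fold change between 3.2 and 10 µM, 0.60 ± 0.12, exceeded 1.5-fold with an adjusted p of 0.0804. Gclc and Mgst2 are on the list of NRF2 targets, of which 33 other genes were tested. Of these, 31 had a log2 fold change above 0 at 10 µM over 3.2 µM, with a median of 0.19 and 0 called. LPS had not lowered that list as a whole, since 14 of the 33 were called higher with LPS (14.6% of all genes) and 2 lower.

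Abcg1, an exporter of cholesterol, and Arl4c, a small GTPase, are both LXR targets. Abcg1 had 60.67 and 57.32 CPM in DMSO + LPS, 70.18 and 67.14 CPM at 3.2 µM, 81.3 and 74.16 CPM at 10 µM, and 88.1 and 80.51 CPM at 32 µM, all below the 104.3 and 99.83 CPM in DMSO. Its 10 and 32 µM libraries overlapped. The other 15 LXR and efflux genes tested had a median of -0.0057 at 10 µM over 3.2 µM, with 7 above 0. Arl4c differed from most of the set in dose, with 3.747 and 3.573 CPM in DMSO + LPS, 5.199 and 5.074 CPM at 3.2 µM and 5.039 and 5.46 CPM at 10 µM. Those doses overlapped, and the log2 fold change between them was 0.01 ± 0.09. Hal, which breaks down histidine, was the sole gene of the 127 whose mean at 3.2 µM exceeded that at 32 µM, with 6.571 and 6.231 CPM against 6.218 and 5.449 CPM. The libraries at these doses did not overlap, by a narrow margin.

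The remaining metabolic genes regained between 19.45% for Chst3, a chondroitin sulfotransferase, and 98.88% for H6pd, which makes NADPH in the endoplasmic reticulum. Sord, the sorbitol dehydrogenase, regained 70.31%, and Abcc3, an exporter of organic anions, 28.18%. Alox5ap, which presents arachidonic acid for leukotriene synthesis, had 124.4 and 124.3 CPM in DMSO + LPS, 136.5 and 130.4 CPM at 3.2 µM, 166 and 136.5 CPM at 10 µM, and 202.3 and 166 CPM at 32 µM. Replicate 1 was the higher of the pair at each dose, and the step from 3.2 to 10 µM did not pass (adjusted p = 0.862).

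The 9 genes of TGF-β and growth factor signaling all had a log2 fold change above 0 at 10 µM over 3.2 µM, with a median of 0.24. Pdgfa, a ligand of PDGF receptors, had 29.72 and 30.75 CPM in DMSO, 16.65 and 18.01 CPM in DMSO + LPS and 20.57 and 20.31 CPM at 3.2 µM. It had 26.33 and 28.52 CPM at 10 µM and 31.74 and 32.33 CPM at 32 µM, above both DMSO libraries. The log2 fold change of 0.40 ± 0.06 at 10 µM over 3.2 µM had an adjusted p of 0.0364, lost when any of those 4 libraries was left out.

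Pmepa1, a membrane protein that limits TGF-β signaling (ENSMUSG00000038400, chromosome 2, 173224458 to 173276533 in GRCm38, minus strand), had most of its difference at the lowest dose. It had 112.1 and 101.1 CPM in DMSO, 41.66 and 45.32 CPM in DMSO + LPS, 70.89 and 66.81 CPM at 3.2 µM, 81.99 and 72.88 CPM at 10 µM, and 81.44 and 72.11 CPM at 32 µM. The values at 10 and 32 µM were nearly alike and overlapped, and those at 3.2 µM were clear of DMSO + LPS. At 3.2 µM the log2 fold change over DMSO + LPS was 0.67, the smallest p of the 127 genes in that comparison, but the adjusted p was 0.229. Pmepa1 was called there by DESeq2 and without the count filter, with adjusted p over all alternatives from 9.77e-08 to 1. Angptl2, a secreted angiopoietin-like protein, had a similar course, with 2.035 and 1.714 CPM in DMSO + LPS, 3.535 and 2.971 CPM at 3.2 µM, 4.287 and 3.524 CPM at 10 µM and 3.836 and 3.583 CPM at 32 µM. Its 10 and 32 µM libraries overlapped, and so did those at 3.2 and 10 µM.

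Klf10 and Klf11, transcription factors induced by TGF-β, and the inhibitory SMAD gene Smad7 differed little from DMSO + LPS at 3.2 µM. Klf11 had 0.8478 and 1.095 CPM in DMSO + LPS, 0.9358 and 1.177 CPM at 3.2 µM, 1.736 and 2.088 CPM at 10 µM and 2.705 and 3.011 CPM at 32 µM. Its first pair of conditions overlapped and the others did not, and at this low level the log2 fold change of 0.83 ± 0.20 at 10 µM over 3.2 µM did not pass (adjusted p = 0.153). Klf10 had 13.12 and 13.66 CPM at 3.2 µM and 15.62 and 15.64 CPM at 10 µM, and Smad7 had 7.424 and 7.466 CPM and 9.87 and 9.181 CPM. None of these steps passed. In the list of TGF-β and SMAD genes, 27 others were tested, of which 13 had a log2 fold change above 0 at 10 µM over 3.2 µM and 0 were called in either direction. Fzd7, a Wnt receptor, regained 37.81% of its fall.

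Signaling through G proteins, cAMP and RAS-family GTPases was represented by 7 genes, all above 0 at 10 µM over 3.2 µM and with 0 at an adjusted p below 0.05. Arrb1, the adaptor β-arrestin 1, had 64.75 and 58.37 CPM in DMSO + LPS, 67.91 and 66.71 CPM at 3.2 µM, 80.71 and 85.67 CPM at 10 µM and 102.1 and 98.7 CPM at 32 µM, against 232.7 and 243.1 CPM in DMSO. The groups did not overlap, and the step from 3.2 to 10 µM was 0.29 ± 0.06 on the log2 scale (adjusted p = 0.0872). Adcy3, an adenylyl cyclase, regained 52.9% of its fall and Prkar1b, a regulatory subunit of protein kinase A, 68.92%, both at levels under 5 CPM. Rin1, an effector of RAS, was called at 10 µM over DMSO + LPS (0.68 ± 0.11, adjusted p = 0.0228), a call lost when any of those 4 libraries was left out.

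Of the 11 genes for actin, adhesion and membrane shape, all were above 0 at 10 µM over 3.2 µM (52.5% of all genes), 10 with both 10 µM libraries above both 3.2 µM libraries (21.2% of all genes). Fblim1, the adaptor migfilin, had 7.291 and 7.56 CPM in DMSO + LPS, 9.94 and 9.569 CPM at 3.2 µM, 11.33 and 11.77 CPM at 10 µM and 12.09 and 10.98 CPM at 32 µM. Like Pmepa1 it showed much of its gain at 3.2 µM, and its 10 and 32 µM libraries overlapped. The formins Inf2 and Fhod1, which elongate actin filaments, and the actin-oxidizing enzymes Mical2 and Mical3 regained between 24.62% and 40.08% of their falls. Synpo, which encodes the actin-associated synaptopodin, had the largest gain of the group at 32 µM, 0.98 in L, from 3.696 and 3.697 CPM in DMSO + LPS to 8.58 and 7.972 CPM.

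The 20 genes of mitosis and chromosome segregation were the largest group with a named role and regained the least. LPS left a median of 20.42% of their DMSO level, and at 32 µM the median was 29.27%. The share of the fall regained had a median of 23.32%, and for 19 of the 20 both DMSO libraries stayed above both 32 µM libraries, as in 49.3% of all genes tested. The DMSO and 32 µM libraries took part in the choice, so nothing is read from that count. In bulk RNA, fewer dividing cells and less of each transcript per cell cannot be told apart. At 10 µM over 3.2 µM, 18 of the 20 had a log2 fold change above 0 (52.5% of all genes) with a median of 0.20, and 14 had both 10 µM libraries above both 3.2 µM libraries (21.2% of all genes). Cdc20 and Kif18b had an adjusted p below 0.05.

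Cdc20, which activates the anaphase-promoting complex (ENSMUSG00000006398, chromosome 4, 118432901 to 118437352 in GRCm38, minus strand), had 109.6 and 110.8 CPM in DMSO, 27.67 and 26.65 CPM in DMSO + LPS and 26.1 and 26.03 CPM at 3.2 µM. It had 34.1 and 31.87 CPM at 10 µM and 42.62 and 43.02 CPM at 32 µM. The lowest dose lay below DMSO + LPS and the other doses above it. The log2 fold change at 10 µM over 3.2 µM was 0.32 ± 0.05 (adjusted p = 0.047). Kif18b, a kinesin that shortens microtubules, had 7.299 and 7.813 CPM at 3.2 µM and 10.2 and 10.96 CPM at 10 µM (0.47 ± 0.08, adjusted p = 0.042). Both values were lost without replicate 1 at 10 µM and without either 3.2 µM library, and that of Kif18b also without replicate 2 at 10 µM.

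Some mitotic transcripts differed more between the 10 µM replicates than between the means at 3.2 and 10 µM. Cenpf, a kinetochore protein, had 11.39 and 10.39 CPM in DMSO + LPS, 10.11 and 11.38 CPM at 3.2 µM, 11.44 and 16.71 CPM at 10 µM and 14.82 and 16.22 CPM at 32 µM, against 87.21 and 111.9 CPM in DMSO. Its 10 and 32 µM libraries overlapped. Cenpe, the kinetochore kinesin, had 21.08 and 29.06 CPM at 10 µM against 20.77 and 21.72 CPM at 3.2 µM, which overlapped. Replicate 2 was the higher of the pair for 18 of the 20 genes in DMSO, 5 in DMSO + LPS, 10 at 3.2 µM, 14 at 10 µM and 13 at 32 µM. Plk1, the mitotic kinase, had 11.51 and 12.39 CPM in DMSO + LPS, 13.04 and 10.4 CPM at 3.2 µM, 13.53 and 13.55 CPM at 10 µM and 19.38 and 18.36 CPM at 32 µM. Its 3.2 µM libraries overlapped DMSO + LPS, and those at 32 µM stood clear of all other LPS-treated libraries. Ube2c, the ubiquitin-conjugating enzyme that works with Cdc20, regained 36.78%, and Aspm, Kif14, Kif20a and Cenpf each regained less than 25%. Hmmr, Nusap1, Cdc25b, Dlgap5 and Prc1, which act in the spindle or in entry into mitosis, regained between 20.42% and 29.22%, and none passed at 10 µM over 3.2 µM.

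The fixed list of cell division genes held 38 genes, of which 12 were in the set. The 26 that were not in the set were all called lower with LPS (13.6% of all genes were called). They had a log2 fold change above 0 at 10 µM over 3.2 µM in 21 cases, with a median of 0.12 and 0 called. The list of DNA replication and nucleotide supply genes had 0 members in the set, although 32 of its 35 genes were called lower with LPS. Of these 35 genes, 12 had a log2 fold change above 0 at 10 µM over 3.2 µM, with a median of -0.026. Another 4 members act in DNA repair and recombination, among them Palb2, a partner of BRCA2, and regained between 20.19% and 30.92%.

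**Figure D5:**
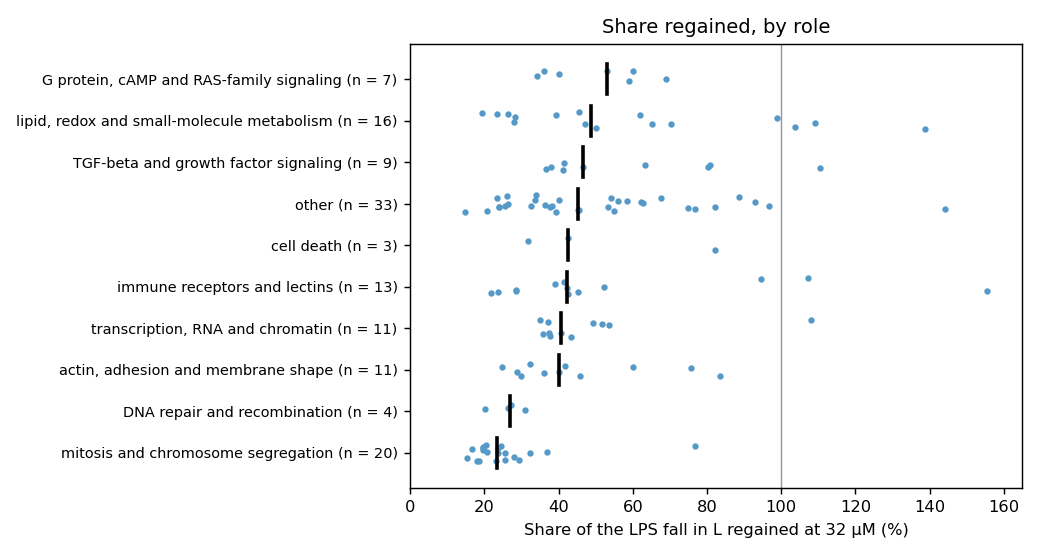
Share of the LPS fall in L regained at 32 µM (horizontal, percent) for each of the 127 genes, grouped by role. Points are genes, black bars group medians and the gray line full recovery. The mitosis group has the lowest median, 23.32%, and 8 genes lie beyond 100%.

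Among 11 genes of transcription, RNA and chromatin, the linker histone Hist1h1c regained 108.1% and H1f0 43.32% of the fall. Zfp36l2, which promotes decay of AU-rich transcripts, had 62.89 and 66.43 CPM in DMSO + LPS, 67.6 and 69.3 CPM at 3.2 µM, 74.75 and 88.54 CPM at 10 µM and 94.54 and 107.2 CPM at 32 µM, and 210.4 and 234.7 CPM in DMSO. Groups did not overlap, while the step from 3.2 to 10 µM did not pass (adjusted p = 0.593). Klf9, a target of glucocorticoid and thyroid hormone receptors, had 6.85 and 6.568 CPM in DMSO + LPS, 8.887 and 9.376 CPM at 10 µM and 8.136 and 10.26 CPM at 32 µM. All 11 genes were above 0 at 10 µM over 3.2 µM, with 0 at an adjusted p below 0.05. Of 3 genes of cell death, Bmf, a BH3-only protein that antagonizes BCL-2, had 6.862 and 6.366 CPM at 3.2 µM and 8.803 and 9.659 CPM at 10 µM (0.46 ± 0.08, adjusted p = 0.048). This value was lost with library size alone, with a replicate term and when any of the 4 libraries was left out.

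The other 33 genes shared no single role. Creg1, a secreted glycoprotein of the endolysosomal system, had 441.4 and 432.4 CPM in DMSO, 262.2 and 269.9 CPM in DMSO + LPS, 288.2 and 295.1 CPM at 3.2 µM, 395.2 and 379.5 CPM at 10 µM, and 553.9 and 532.7 CPM at 32 µM. Its groups did not overlap, and the log2 fold change at 10 µM over 3.2 µM was 0.39 ± 0.04 (adjusted p = 0.0101). Ank, a membrane protein that exports citrate, ATP and pyrophosphate, had 1490 and 1532 CPM in DMSO, 736.9 and 736.2 CPM in DMSO + LPS, 863.2 and 862.8 CPM at 3.2 µM, 1113 and 1123 CPM at 10 µM and 1204 and 1190 CPM at 32 µM. The replicates lay close together, and the log2 fold change from 3.2 to 10 µM was 0.35 ± 0.03 (adjusted p = 0.00633). Ndrg2, a differentiation-related protein of the NDRG family, had 70.31 and 69.49 CPM at 3.2 µM and 94.79 and 90.74 CPM at 10 µM (0.39 ± 0.05, adjusted p = 0.0189). Without replicate 1 at 10 µM the adjusted p was 0.0516 for Creg1, 0.0789 for Ndrg2 and 0.0312 for Ank, and without one or the other 3.2 µM library it lay between 0.118 and 0.273 for these 3 genes.

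Zfyve28, a regulator of endosomal receptor traffic, had the largest fitted step from 3.2 to 10 µM, 1.15 ± 0.26 on the log2 scale, at low level. It had 0.6862 and 0.6945 CPM at 3.2 µM and 1.798 and 1.305 CPM at 10 µM, with an adjusted p of 0.129. Replicate 1 was the higher at 10 µM. Mfsd6, a membrane transporter-like protein, had 73.25 and 68 CPM in DMSO + LPS, 74.19 and 74.7 CPM at 3.2 µM, 85.33 and 95.09 CPM at 10 µM and 124 and 127.2 CPM at 32 µM, with most of its difference at the highest dose. Rph3a, an effector of RAB GTPases, had the lowest fitted step, -0.24 ± 0.18, with libraries that overlapped nowhere between 3.2 µM (1.518 and 1.486 CPM) and 10 µM (1.129 and 1.458 CPM).

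The other functional lists varied in the step from 3.2 to 10 µM. Of the genes outside the set, the fitted log2 fold change was above 0 for 15 of 41 G protein-coupled receptors, 12 of 25 complement, lectin and scavenger genes, and 6 of 13 glucocorticoid-induced genes. It was above 0 for 13 of 20 KLF, EGR, MEF2 and FOXO factors and for 33 of 46 ion channels and ABC transporters. Other lists held 0 members of the set. Among these, the fitted value was above 0 for 12 of 16 clock factors, 25 of 41 integrin, adhesion and matrix genes, 23 of 50 lysosome genes, 13 of 40 genes of glycolysis and respiration and 3 of 27 genes of sterol and fatty acid synthesis. It was above 0 for 0 of 29 interferon-stimulated genes, 5 of which were called lower, and for 4 of 31 NF-κB-dependent genes, 6 of which were called lower.

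At the edge of the rule, Kif2a, Kcnj2 and Prkar1b lay just inside the LPS threshold, with changes of -0.59, -0.59 and -0.60 in L, and Cep170b and Plin2 just outside it at -0.57. Csf1r, Smpdl3a and Kif20a lay just inside the threshold at 32 µM with gains of 0.40, and Trim7, Fam199x and Depdc1a just outside it, also at 0.40 after rounding. Membership near these values is set by the thresholds.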

How the data were processed

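Poly(A) RNA was made into stranded libraries and read from both ends, 150 cycles each. The authors deposited raw, unnormalized counts for each Ensembl gene. The submitters' processing notes name Trimmomatic, FastQC, STAR, DESeq2 and mm10; the counter, its strand setting and its annotation are not given in the sources used here. Depth was 45966803 to 58976377 counts per library. Symbols and positions came from GENCODE M21 (GRCm38), promoters from RefSeq (GRCm38.p6).

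CPM used library totals, whereas fitted folds used TMM scaling. Genes kept by filterByExpr (minimum count 10) entered 1 fit of all 10 libraries with edgeR 4.0.16 in R 4.3.3, whose quasi-likelihood p-values were adjusted by Benjamini-Hochberg over 14172 genes. An exact permutation test of 2 libraries with 2 others has a smallest p of 0.333. The steps were tested on simulated data.

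The genes, lists and tests were chosen with earlier results of these data known, and roles were assigned by hand with the genes in view. Named are genes on the functional lists, the 12 most abundant, the 12 with the largest gain, those called, those beside the thresholds, and the 5 highest and 5 lowest in share regained. The 9 genes with a passing adjusted p at any fold, neighbors in the CD300 and TREM clusters and single examples of a role were named after their values were seen. A gene beside a threshold and a functional list are not reported here.

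Alternatives were DESeq2 1.42.0 (its size factors or its Wald test), scaling by library size, omitting the count filter, a minimum mean of 5 CPM, a replicate term and leaving out each library. For the choice of genes, other scalings and a pseudocount of 0.5 were also tried. Calls by adjusted p at any fold, and leaving out both libraries with epithelial markers, were added after the data were seen.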

Additional observations from a re-analysis of the deposited data

How the results depend on the processing

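None of the results tested changed direction. The count of genes called at 10 µM over 3.2 µM was 0 and became 1 with DESeq2's Wald test and with no count filter (0 to 1 when a library was left out). At 3.2 µM over DMSO + LPS the count of 0 became 1 with the same alternatives and stayed at 0 when a library was left out. The 12 calls at 10 µM over DMSO + LPS ranged from 7 to 8 when a library was left out, and from 9 to 14 otherwise. The 9 genes with an adjusted p below 0.05 at 10 µM over 3.2 µM became 22 with DESeq2's Wald test, ranged from 0 to 8 when a library was left out, and were 0 without the replicates that held epithelial markers. The median log2 fold change of 0.21 was 0.226 with library size alone and 0.2203 without those replicates (0.1983 to 0.2158 when a library was left out). The rule chose 104 to 172 genes, the highest with a pseudocount of 0.5. A library left alone in its group is assumed to vary like the others.

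The replicate numbers are shared by all conditions, but differences between replicates 2 and 1 correlated from -0.169 to 0.573 between conditions, and not every value was over 0.1, so that the numbers were not taken as pairs. The 6 values that do not involve DMSO + LPS lay between 0.104 and 0.573, the highest being that of 3.2 with 10 µM, and the 4 others between -0.169 and -0.0664. With a replicate block the counts were 0, 14 and 0, the count by adjusted p alone was 10 and the median 0.2061, and Bmf was lost. For genes under 5 CPM, of which there were 17, depth limits what can be shown.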
